A study of Mus musculus with 6 samples.

Results

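The livers of 2 male DIAMOND mice fed a Western Diet for 40 weeks (Pre-T, before tumors) were compared with the livers of 2 male mice kept on chow for the same time (Ctrl). DIAMOND mice are a cross of the 129A1/SvIm and C57BL/6J strains that is used as a model of fatty liver disease, and all animals started their diet at 2 months of age. The Western Diet combined high-fat food with sugar water, while the Ctrl mice had regular water. Each liver was snap-frozen and gave 1 library of nuclear RNA on the 10x Genomics 3' platform. The comparison was defined by diet and week and not by any measured value. It took 4 of the 6 libraries of the study and 28256 of its 39012 nuclei that had more than 200 and fewer than 5000 genes and under 5% mitochondrial UMIs. A UMI (unique molecular identifier) marks 1 captured RNA molecule. The other 2 libraries, from mice fed the same diet for 48 weeks (Post-T), were clustered together with these 4 and entered the statistical fit, and their levels are not described. The mice of a group were housed apart from those of the other group, so diet and cage cannot be told apart.

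A diet rich in fat and sugar loads hepatocytes with triglyceride that is kept in lipid droplets. When sterol accumulates in the endoplasmic reticulum, the transcription factor SREBP-2 stays inactive and the genes of cholesterol synthesis are transcribed less. Hepatocytes also divide their work along the blood flow: those around the portal vein make urea and glucose, those around the central vein detoxify and make glutamine. Kupffer cells are the resident macrophages of the liver, and lipid-associated macrophages, which express Trem2 and Gpnmb, are known from fatty livers and from obese adipose tissue.

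The 4 libraries held 21501031 to 24847537 UMIs in 5407 to 7846 kept nuclei, with a median of 1623 to 2805 UMIs per nucleus, so that depth was similar for the sums over a library. The filter on genes and mitochondrial UMIs removed 1.91% and 4.43% of the barcodes of the Ctrl mice and 12.2% and 7.36% of those of the Pre-T mice. Over 10029 genes, the SD of the log2 difference was 0.451 between the Ctrl mice, 0.575 between the Pre-T mice and 0.869 to 0.915 between a Ctrl and a Pre-T mouse. Some nuclei lay in unnamed clusters that only 1 or 2 libraries mainly filled. In Ctrl 2, a cluster led by Rdh16f2, Hamp and Egr1 held 29.7% of the nuclei. In Pre-T 1, a cluster led by Ttn, Apcdd1 and Plat held 15.6% of the nuclei and 29.1% of the UMIs, with a median of 8256 UMIs per nucleus. This cluster was shared with Post-T 1, which had 646 nuclei in it beside 846 of Pre-T 1. In Pre-T 2, a cluster led by Saa2, Saa1, C1qa and Lyz2 held 31.7% of the nuclei and 11.4% of the UMIs, with a median of 796 UMIs. Hepatocyte RNA was also present in other nuclei. In T cells, which should lack it, 8 hepatocyte markers summed to 24754, 15157, 8550 and 21861 counts per 1000000 UMIs (CPM) in Ctrl 1, Ctrl 2, Pre-T 1 and Pre-T 2, against 30901, 21594, 15030 and 19884 CPM in hepatocytes. Hepatocyte clusters were therefore named from UMIs per nucleus, a measure that rises with depth: at least 3 of the 8 markers were at least 3-fold above the median of the other named clusters. In CPM, under 3 of these markers were 3-fold raised in each hepatocyte cluster. All values per mouse below are CPM in this order of the mice: Ctrl 1, Ctrl 2, Pre-T 1, Pre-T 2.

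Summed over all kept nuclei, 21790 genes were tested. On the CPM scale 9880 of them (45.3%) were higher in both Pre-T mice than in both Ctrl mice, and 3453 (15.8%) were lower in both. The median log2 ratio of all genes was 0.32 on this scale and -0.009 after TMM scaling, which sets the bulk of genes equal. After TMM scaling 6349 genes were higher and 6840 were lower, so the split between higher and lower genes depended on the scale, and a count of higher genes on the CPM scale is read against 45.3%. The main fit of edgeR over 6 libraries called 0 genes for the pooled nuclei (0% of those tested), with 4291 genes (19.7%) at an unadjusted p under 0.05. The same test on the 4 libraries alone called 632 genes higher (2.97%) and 468 lower (2.2%), and DESeq2 called 2119. Leaving out Post-T 1 or Post-T 2 gave 1078 or 1392 calls, and leaving out any Ctrl or Pre-T mouse gave 0. In such sums, fewer cells of a type and less RNA per cell cannot be told apart. The groups are therefore described by their ranges here, and the tests follow within cell classes.

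Of the 21 pathway lists, those whose median stood farthest from all genes were cholesterol synthesis and uptake, periportal hepatocyte genes and lipid-associated macrophage genes. Of 22 cholesterol genes, 18 were lower in both Pre-T mice on the CPM scale and 20 after TMM scaling, and 0 were higher on either scale. Of 15 periportal genes, 12 were lower and 1, Ctsc, was higher on both scales. Of 18 lipid-associated macrophage genes, 16 were higher on the CPM scale and 15 after TMM scaling, and 0 were lower. The median fitted log2 fold changes were -1.94, -2.05 and 2.29 for these lists and -0.005 for all genes. Inflammatory cytokines and chemokines had 17 of 24 genes higher and 1, Cxcl12, lower (14 and 1 after TMM scaling). Other lists divided: in fatty acid synthesis 9 of 16 genes were higher and 4 lower (6 and 4 after TMM scaling), and in lipid droplets 14 of 19 were higher and 3 lower (8 and 6). Genes of glucose, glycogen and fructose metabolism had 1 of 20 higher and 8 lower (0 and 14).

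**Figure D1:**
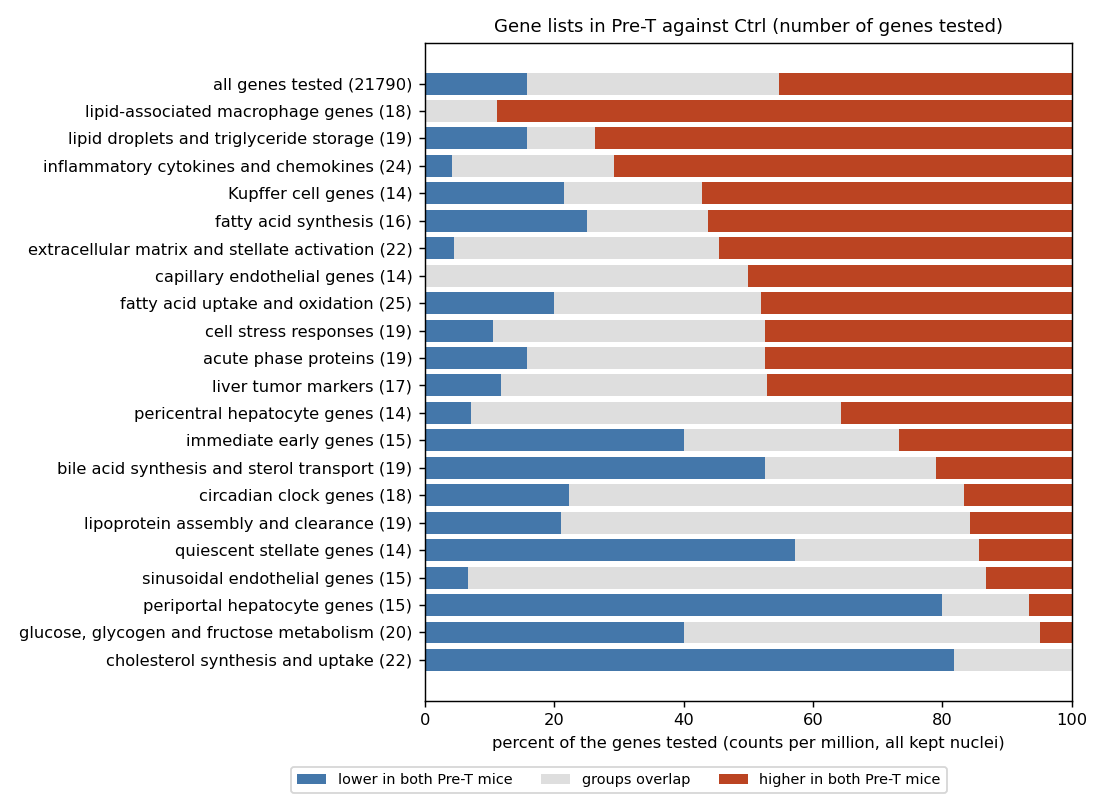
Share of the measured genes of 21 lists, and of all 21790 genes tested, that were lower in both Pre-T mice, overlapped between the groups or were higher in both Pre-T mice (horizontal axis in percent, CPM over all kept nuclei, 2 mice per group). Cholesterol genes have 18 of 22 lower and 0 higher, while lipid-associated macrophage genes have 16 of 18 higher and 0 lower.

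The largest differences over all nuclei, chosen without an adjusted p since none passed, were of several kinds. Gpnmb, a glycoprotein of lipid-laden macrophages, stood at 0.443, 0.327, 30.2 and 39.5 CPM (ENSMUSG00000029816, chr6:49036546-49070929; log2 fold change 6.15 ± 0.38 (SE), edgeR adjusted p = 0.0629). Mmp12, a macrophage elastase, stood at 0.523, 1.43, 54.9 and 87.5 CPM, and the groups were far apart for both genes. Lcn2, an iron-siderophore binding protein of the acute phase, stood at 0.403, 0.408, 33.7 and 110.1 CPM. Apcdd1 stood at 0.443, 0.0817, 150.5 and 0.744 CPM and Plat, tissue plasminogen activator, at 1.73, 0.776, 269 and 2.6 CPM. Of the 4 mice, these last 2 genes were high in Pre-T 1 alone, and they led the unnamed cluster of Pre-T 1 and Post-T 1. Among the lower genes were Hsd3b5, a male-biased steroid dehydrogenase of hepatocytes, at 84.5, 50.5, 0.082 and 0.419 CPM (ENSMUSG00000038092, chr3:98618634-98630252) and Serpina1e, a form of alpha-1 antitrypsin, at 2474, 587, 9.26 and 59.3 CPM. Gm12718, Gm3839 and Mup7 were also among them. Serpina1e and Mup7 have near-identical copies in the genome, so their counts are uncertain.

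Cholesterol genes were mostly lower in both Pre-T mice, from early and late steps of the pathway. In the early, mevalonate steps, Hmgcs1, which makes HMG-CoA, stood at 280.5, 39.1, 33 and 29.5 CPM over all nuclei. Ctrl 1 was far above Ctrl 2, and Ctrl 2 was close to the Pre-T mice. Idi1, isopentenyl diphosphate isomerase, stood at 94, 33.6, 7.71 and 9.35 CPM. The sterol steps follow. Sqle, squalene epoxidase, which makes the first oxygenated sterol precursor, stood at 61.2, 28, 4.47 and 3.21 CPM (ENSMUSG00000022351, chr15:59315077-59331192). Msmo1, a methylsterol oxidase, stood at 353, 117, 30.3 and 24.6 CPM and Nsdhl, a sterol dehydrogenase of the same demethylation, at 80.5, 52.6, 23.5 and 21.2 CPM. Every one of these genes was lower in both Pre-T mice. Lss, which closes the sterol rings, stood at 91.6, 29, 13.9 and 13.3 CPM, and Insig1, which holds the SREBP complex in the endoplasmic reticulum, at 434, 142, 62.5 and 66.1 CPM. Among the genes whose groups overlapped on the CPM scale were Fdps, Pmvk and Srebf2, the last of which encodes SREBP-2 itself and stood at 116, 86.7, 100 and 66.9 CPM.

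The Post-T libraries in the fit gave 24 and 1281 hepatocytes, against 3626, 1833, 1494 and 1360 in the 4 compared mice. Of those of Post-T 2, 1279 lay in a cluster with 0 nuclei of the 4 compared mice. Within hepatocytes, 21265 genes were tested and edgeR called 560 (2.63%), of which 350 (1.65%) rose and 210 (0.988%) fell in Pre-T. These numbers rested on single mice: the test called 313 genes when Ctrl 1 was left out, 74 when Pre-T 1 was, 107 when Pre-T 2 was, and 1338 or 1276 when Post-T 1 or Post-T 2 was. Of the 22 cholesterol genes, 17 were lower in both Pre-T mice, 0 were higher and 5 fell in the test, beside 15.2% lower and 42.5% higher in both Pre-T mice among all genes tested in hepatocytes. Sqle fell, with 70.2, 31.1, 4.6 and 3.56 CPM (log2 fold change -3.88 ± 0.54 (SE), edgeR adjusted p = 0.0132). Msmo1 fell, with 429, 138, 29.2 and 30.6 CPM (log2 fold change -3.51 ± 0.58 (SE), edgeR adjusted p = 0.0233). Idi1 fell, with 109, 36, 7.59 and 8.48 CPM (log2 fold change -3.44 ± 0.53 (SE), edgeR adjusted p = 0.0193). For each of these 3 enzymes the Pre-T mice were close to each other and far below the lower Ctrl mouse, Ctrl 2. Mvk, mevalonate kinase, fell, with 23.5, 11.6, 4.26 and 2.83 CPM (log2 fold change -2.56 ± 0.45 (SE), edgeR adjusted p = 0.0293). Nsdhl fell the least of the 5, with 93.1, 61.4, 22.6 and 26.3 CPM (log2 fold change -1.90 ± 0.30 (SE), edgeR adjusted p = 0.0209). Each of these 5 calls was lost without Pre-T 1 and without Pre-T 2, and that of Mvk also without Ctrl 1. Hmgcs1 was lower in both Pre-T mice without passing the test, with 333, 37.5, 35.4 and 30.2 CPM (edgeR adjusted p = 0.136). Without the Post-T libraries in the fit, 9 cholesterol genes passed, all lower, in a fit that called 3% of all genes higher and 3.22% lower. Hepatocyte genes were lower in the same direction in other classes, where hepatocyte RNA was also present: Sqle stood at 46.9, 20.7, 2.79 and 2.72 CPM in macrophages and at 42.5, 15.3, 2.48 and 1.07 CPM in fibroblasts.

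**Figure D2:**
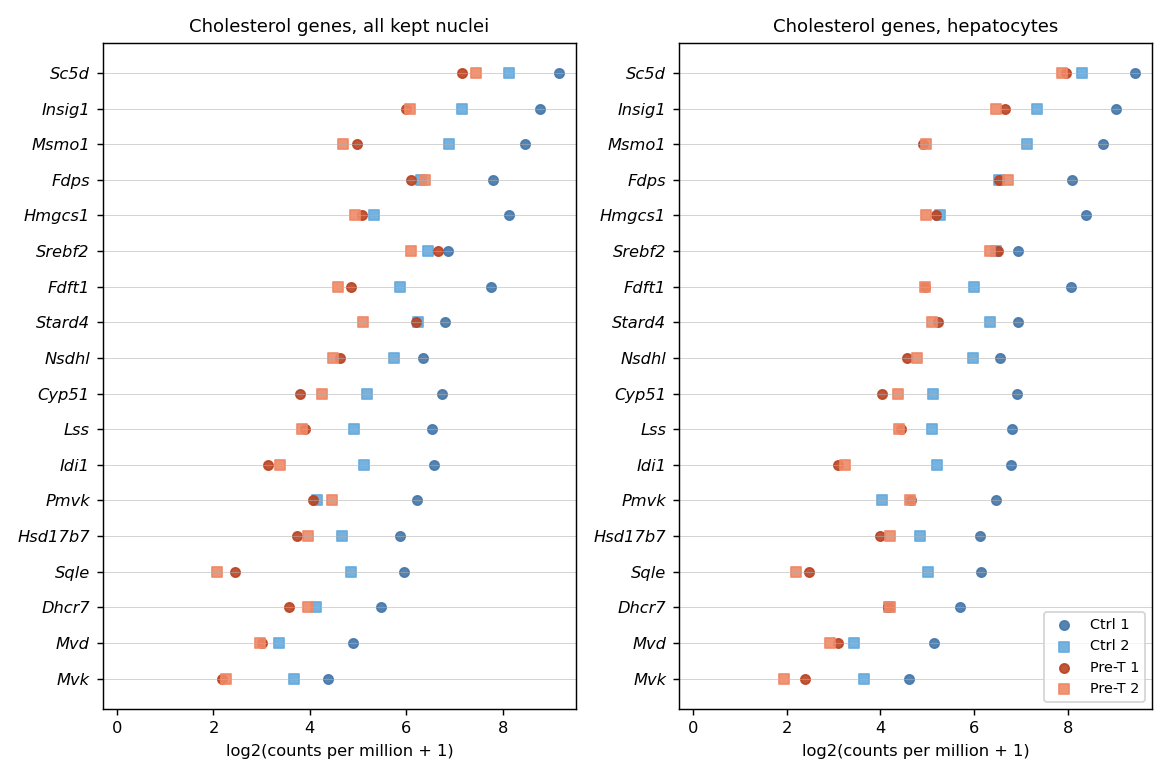
Level of 18 of the cholesterol genes in each mouse as log2(CPM + 1), over all kept nuclei (left) and in hepatocytes (right), with 1 point per mouse and colors for Ctrl and Pre-T. In hepatocytes Sqle is at 70.2 and 31.1 CPM in the Ctrl mice and at 4.6 and 3.56 CPM in the Pre-T mice.

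Promoter sequences are shown for 3 cholesterol genes that were lower in both Pre-T mice, of which Nsdhl and Mvk passed the test in hepatocytes and Hmgcs1 did not. SREBP-2 binds a sterol regulatory element, searched here as TCACNCCAC, and acts together with the factor NF-Y, which binds the CCAAT box. The 250 bases before the start site were read from RefSeq (GRCm38.p6), strand + for each of the 3 genes, and both strands were searched. Capitals mark the letters of either motif, with ATTGG being CCAAT on the other strand. Hmgcs1 lies at chr13:119690101-119690350 and holds 1 sterol element and 3 CCAAT boxes, Nsdhl at chrX:72918271-72918520 holds 2 CCAAT boxes, and Mvk at chr5:114444019-114444268 holds 5.
Hmgcs1: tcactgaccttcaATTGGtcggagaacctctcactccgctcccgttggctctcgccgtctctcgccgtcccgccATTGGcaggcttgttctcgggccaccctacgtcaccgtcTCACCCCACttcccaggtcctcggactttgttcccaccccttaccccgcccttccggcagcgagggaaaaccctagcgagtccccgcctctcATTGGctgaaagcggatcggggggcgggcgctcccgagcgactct
Nsdhl: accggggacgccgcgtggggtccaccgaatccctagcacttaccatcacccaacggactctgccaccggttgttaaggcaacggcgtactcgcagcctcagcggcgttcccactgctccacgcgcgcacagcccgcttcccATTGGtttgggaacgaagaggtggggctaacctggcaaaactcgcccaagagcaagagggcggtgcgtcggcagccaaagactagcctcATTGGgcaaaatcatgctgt
Mvk: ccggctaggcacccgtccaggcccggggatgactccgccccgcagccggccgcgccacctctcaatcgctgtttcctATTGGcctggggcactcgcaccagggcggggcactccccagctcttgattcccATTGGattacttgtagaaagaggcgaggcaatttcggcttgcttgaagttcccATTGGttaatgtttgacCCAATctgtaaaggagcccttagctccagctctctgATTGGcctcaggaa
Of the 22 listed genes, 14 had a promoter in the table, with 17 windows in all. A CCAAT box was found in 14 of the 17 windows (82.4%) and in 33.8% of all 32851 windows of this length. The sterol element as spelled here was found in 1 window (5.88%) and in 1.05% of all windows. The motifs do not overlap each other in these letters, and a match is a description of the sequence only.

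In hepatocytes, 14 of 19 genes of lipid droplets and triglyceride storage were higher in both Pre-T mice, 0 were lower and 5 overlapped between the groups. Of the 19 genes, 5 rose in the test. Among all genes tested in hepatocytes 42.5% were higher and 1.65% rose. Mogat1, which acylates monoacylglycerol, stood at 3.71, 3.62, 33.4 and 33.5 CPM (chr1:78510991-78538173; log2 fold change 2.96 ± 0.27 (SE), edgeR adjusted p = 0.00406), and both mice of a group had nearly the same value. Cidea, which with Cidec fuses lipid droplets into larger ones, stood at 0.185, 0.0905, 4.14 and 6.88 CPM (log2 fold change 4.89 ± 0.62 (SE), edgeR adjusted p = 0.00995). Cidec stood at 5.32, 14.2, 102 and 55.5 CPM (log2 fold change 2.83 ± 0.47 (SE), edgeR adjusted p = 0.0233). Fitm1, which helps droplets to bud from the endoplasmic reticulum, stood at 1.85, 4.43, 17.6 and 22.2 CPM (log2 fold change 2.49 ± 0.43 (SE), edgeR adjusted p = 0.0295). Plin5, a droplet coat protein of cells that oxidize fat, stood at 12.9, 14.2, 46 and 44.9 CPM (log2 fold change 1.52 ± 0.28 (SE), edgeR adjusted p = 0.0354). The 2 Pre-T mice were above both Ctrl mice for each of these 5 genes. The call of Mogat1 passed in all 13 alternatives. These were other tools, scalings and filters, the 4 libraries alone, replicate numbers as a block and fits with a library left out. That of Cidea was lost without Pre-T 2, that of Cidec without Ctrl 1 or Pre-T 1, and that of Fitm1 without Ctrl 1, Pre-T 1 or Pre-T 2. The call of Plin5 was lost without any one of the 4 mice, with DESeq2 and with replicate numbers as a block.

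In fatty acid synthesis, 10 of 16 genes were higher in hepatocytes of both Pre-T mice, 3 were lower and 2 rose in the test. The share of lower genes was near the 15.2% of all genes, that of higher genes stood beside 42.5% and that of rising genes beside 1.65%. Acacb, the acetyl-CoA carboxylase whose product restrains mitochondrial fat oxidation, stood at 64.3, 46.4, 217 and 243 CPM (log2 fold change 1.82 ± 0.37 (SE), edgeR adjusted p = 0.0459). Pnpla3, a droplet protein whose human variant is tied to fatty liver, stood at 6.62, 2.89, 79.6 and 67.7 CPM (log2 fold change 3.67 ± 0.51 (SE), edgeR adjusted p = 0.0132). Pnpla3 is among the leading genes of the cluster that held all hepatocytes of the Pre-T mice. The genes that turn citrate and acetate into acetyl-CoA went the other way over all nuclei, without a called change: Acly stood at 323, 209, 88 and 114 CPM and Acss2 at 619.7, 167, 130.4 and 104 CPM. In fatty acid uptake and oxidation, 15 of 25 genes were higher, 4 were lower and 2 rose, beside the same shares of all genes. Cyp4a10, a microsomal omega-hydroxylase of fatty acids, stood at 12.4, 14.7, 98.7 and 85 CPM (log2 fold change 2.54 ± 0.45 (SE), edgeR adjusted p = 0.0298). Fabp4, a lipid chaperone better known from fat cells, macrophages and endothelium, stood at 1.55, 0.724, 7.13 and 9.59 CPM (log2 fold change 2.58 ± 0.52 (SE), edgeR adjusted p = 0.0454). Cd36, a fatty acid receptor, was higher in both Pre-T mice, with 15.5, 49.5, 196 and 193 CPM, and did not pass (edgeR adjusted p = 0.0589). The calls of Acacb and Cyp4a10 were lost without any one of the 4 mice, that of Fabp4 without any one but Ctrl 1 and with DESeq2, and that of Pnpla3 without Pre-T 1. Acacb and Fabp4 also did not pass with at least 100 counts or with replicate numbers as a block.

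Of 19 lipoprotein genes in hepatocytes, 5 were higher and 6 lower, beside 42.5% and 15.2% of all genes, 1 rose and 1 fell. Apoa4, an apolipoprotein made mainly by the gut and by fatty livers, stood at 5.13, 5.16, 164 and 161 CPM (chr9:46240696-46243459; log2 fold change 4.75 ± 0.81 (SE), edgeR adjusted p = 0.0264), with nearly the same value in the mice of a group. Angptl8, a secreted regulator of lipoprotein lipase, stood at 375, 505, 149 and 161 CPM (log2 fold change -1.72 ± 0.36 (SE), edgeR adjusted p = 0.0494). Both calls were lost without any one of the 4 mice, and that of Angptl8 also with at least 100 counts and with replicate numbers as a block. Bile acid and sterol transport genes had 9 of 19 lower, 4 higher and 0 called, beside the same shares of all genes. Cyp7b1, of the alternative pathway of bile acid synthesis, stood at 1082, 3373, 501 and 712 CPM (edgeR adjusted p = 0.142), and Cyp8b1, which makes cholic acid, at 112, 58.5, 28.4 and 31.1 CPM (edgeR adjusted p = 0.0723). Slco1a1, an uptake carrier for organic anions, stood at 583, 582, 196 and 113 CPM (edgeR adjusted p = 0.0652). In glucose metabolism 8 of 20 genes were lower, beside 15.2% of all genes, 4 higher, beside 42.5%, and 0 called. G6pc, which releases free glucose, stood at 1744, 2280, 963 and 830.0 CPM (edgeR adjusted p = 0.0513), and Pck1, of gluconeogenesis, at 1903, 2813, 1098 and 1053 CPM. The groups did not overlap for any of these 5 genes.

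Periportal genes formed the list with the most falling members in hepatocytes. Of 15 genes, 12 were lower in both Pre-T mice, 1 was higher and 6 fell, beside 15.2% lower and 0.988% falling among all genes. Etnppl, which breaks down phosphoethanolamine, stood at 746, 1254, 36.8 and 45.5 CPM (ENSMUSG00000019232, chr3:130617448-130637521; log2 fold change -4.81 ± 0.42 (SE), edgeR adjusted p = 0.0038). Hal, the first enzyme of histidine breakdown, stood at 1117, 1209, 134 and 174 CPM (ENSMUSG00000020017, chr10:93488768-93519304; log2 fold change -3.14 ± 0.32 (SE), edgeR adjusted p = 0.00497). Hsd17b6, a steroid dehydrogenase, stood at 151, 650.4, 21.4 and 11.9 CPM (log2 fold change -4.77 ± 0.69 (SE), edgeR adjusted p = 0.0152). Cyp2f2, a cytochrome P450 of the portal zone, stood at 311, 380.0, 76.5 and 105 CPM (log2 fold change -2.15 ± 0.29 (SE), edgeR adjusted p = 0.0131). The last 2 that fell were neighbors in the urea cycle. Asl, argininosuccinate lyase, stood at 408, 729, 147 and 205 CPM (log2 fold change -1.89 ± 0.35 (SE), edgeR adjusted p = 0.0344), and Ass1, argininosuccinate synthase, at 1012, 986, 361 and 485 CPM (log2 fold change -1.47 ± 0.30 (SE), edgeR adjusted p = 0.0469). Cps1, which opens the urea cycle, stood at 4407, 4950, 2073 and 2532 CPM and did not pass (edgeR adjusted p = 0.108). The call of Etnppl passed in all 13 alternatives. Those of Hal, Hsd17b6 and Cyp2f2 were lost without Pre-T 1 or without Pre-T 2 and those of Asl and Ass1 without any one of the 4 mice. Ass1 also did not pass with at least 100 counts or with replicate numbers as a block.

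Of 14 pericentral genes, 5 were higher and 4 lower in hepatocytes, beside 42.5% and 15.2% of all genes, so the share of higher genes was not above that of all genes. Cyp1a2 and Cyp2c29, both drug-metabolizing P450 enzymes, fell. Cyp1a2 stood at 120.1, 147, 11.8 and 15.6 CPM (log2 fold change -3.50 ± 0.55 (SE), edgeR adjusted p = 0.0206) and Cyp2c29 at 1233, 827, 341 and 372 CPM (log2 fold change -1.77 ± 0.35 (SE), edgeR adjusted p = 0.0451). Both calls were lost without Ctrl 1, without Pre-T 1 or without Pre-T 2. That of Cyp2c29 was also lost with at least 100 counts and with replicate numbers as a block. Glul, glutamine synthetase, which marks the cells next to the central vein, was higher in both Pre-T mice, with 175, 212, 575 and 399.9 CPM (edgeR adjusted p = 0.375). Cyp2e1, another pericentral P450, stood at 799, 1497, 715 and 729 CPM (edgeR adjusted p = 0.384). Over all nuclei Glul stood at 138, 134, 1239 and 326 CPM, Slc1a2, a glutamate carrier, at 146, 296, 1337 and 90.1 CPM and Axin2, a Wnt target, at 10.1, 14.3, 132 and 13.3 CPM. Pre-T 1 was far above Pre-T 2 for these 3 genes. Without the unnamed cluster of high depth, the median log2 fold change of the pericentral list over all nuclei was -0.19 in place of 0.57. In those sums 5 pericentral genes were higher and 3 lower in both Pre-T mice, in place of 5 and 1. Without Pre-T 1, the log2 fold change of Axin2 was -0.093 in place of 2.24 ± 0.98. The hepatocytes of the groups lay in different clusters: those of Pre-T were all in 1 cluster, those of Ctrl 1 to 89.8% in another, and those of Ctrl 2 to 61.8% in another that Etnppl, Hal and Hsd17b6 led. A difference in hepatocytes is therefore also a difference between clusters. The 2 Ctrl mice themselves differed in that respect.

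**Figure D3:**
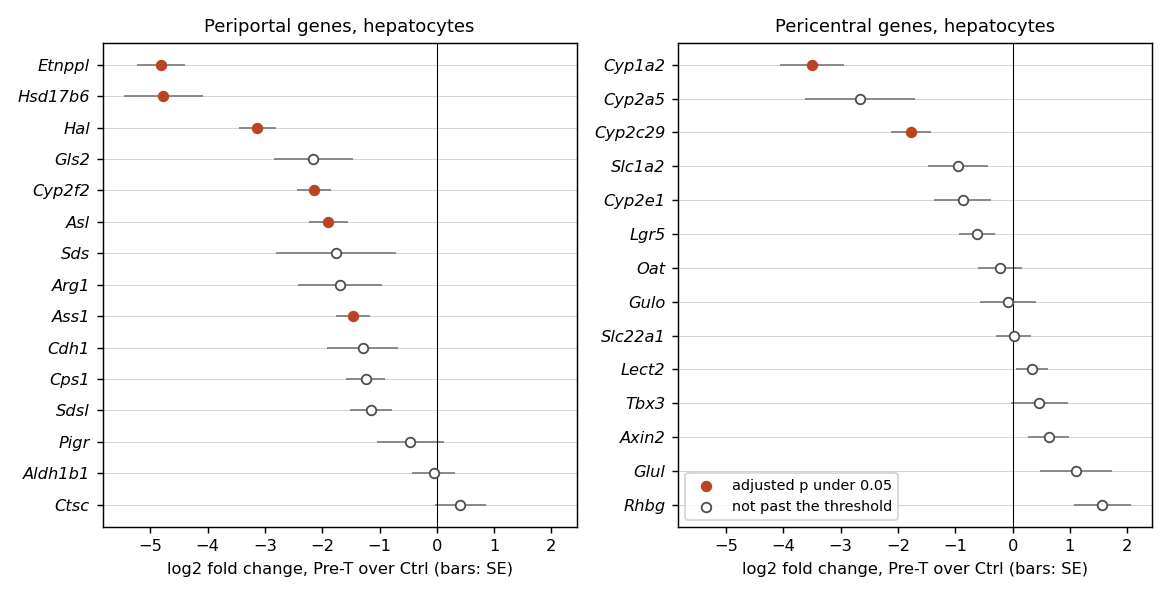
Log2 fold change (Pre-T over Ctrl, edgeR, bars ± SE, 2 mice per group) of 15 periportal and 14 pericentral genes in hepatocytes, with filled red points for an adjusted p under 0.05. Of the periportal genes 6 fell, led by Etnppl at -4.81, and of the pericentral genes 2 fell.

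The genes with the largest differences in hepatocytes were of mixed function. Lcn2 had 2 UMIs in the hepatocytes of both Ctrl mice together and 1104 in those of both Pre-T mice, 893 times the CPM with a 95% counting interval from 247 to 7385 (edgeR adjusted p = 0.0132). Such intervals cover counting error only. Lcn2 was not particular in level to hepatocytes, with 0, 0, 30.4 and 78.2 CPM in fibroblasts. Ptges, which makes prostaglandin E2, stood at 0.0618, 0.543, 123 and 90.6 CPM (log2 fold change 8.36 ± 1.44 (SE), edgeR adjusted p = 0.0278). Ephb2, a receptor tyrosine kinase, stood at 0.433, 0.452, 65 and 38.4 CPM (log2 fold change 6.59 ± 0.68 (SE), edgeR adjusted p = 0.00497), and Igf2bp2, an RNA-binding protein, at 0.927, 0.0905, 46.8 and 46.8 CPM (log2 fold change 6.09 ± 0.74 (SE), edgeR adjusted p = 0.0092). Gm30692, an uncharacterized transcript, also rose. Each of these genes was under 3 CPM in both Ctrl mice. Hsd3b5 fell, with 103, 59.3, 0 and 0.86 CPM (log2 fold change -7.80 ± 0.78 (SE), edgeR adjusted p = 0.0067). Rian, a noncoding RNA of an imprinted cluster, stood at 24.9, 18.7, 0.345 and 0.369 CPM (log2 fold change -6.11 ± 0.87 (SE), edgeR adjusted p = 0.0146), and Tmeff2 at 54.2, 15.8, 1.38 and 0.615 CPM (log2 fold change -5.37 ± 0.73 (SE), edgeR adjusted p = 0.0131). Gm12718, Gm3839 and Mup11 also fell, and Mup11 has near-identical copies. Ptges and Gm30692 led the cluster of the Pre-T hepatocytes, and Gm12718, Gm3839 and Mup11 led that of Ctrl 1. DESeq2 did not call Hsd3b5, Igf2bp2, Gm3839 or Gm30692. The calls of Ptges and Gm30692 were lost without any one of the 4 mice, and that of Gm30692 also with at least 100 counts. That of Rian was lost without Pre-T 1 or without Pre-T 2, that of Tmeff2 without Pre-T 2 and those of Gm12718 and Mup11 without Pre-T 1.

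Of 19 stress genes in hepatocytes, 8 were higher and 1 lower, beside 42.5% and 15.2% of all genes. Asns, asparagine synthetase, a target of the amino acid response, fell, with 24.4, 16.6, 0.805 and 1.23 CPM (chr6:7675169-7693254; log2 fold change -4.56 ± 0.42 (SE), edgeR adjusted p = 0.00406). Cdkn1a, the cell cycle inhibitor p21, rose, with 9.77, 4.43, 65.3 and 53.2 CPM (log2 fold change 2.79 ± 0.43 (SE), edgeR adjusted p = 0.019). These were the only 2 stress genes that passed, beside 2.63% of all genes. Of 19 acute phase genes, 9 were higher and 3 lower, Lcn2 rose and Hamp, the iron hormone hepcidin, fell, with 984, 1811, 495 and 551 CPM (log2 fold change -1.62 ± 0.34 (SE), edgeR adjusted p = 0.0494). Over all nuclei Saa2, serum amyloid A, stood at 2.7, 1.23, 26.4 and 150.2 CPM and Orm2 at 1.37, 0.653, 8.28 and 51.7 CPM. Pre-T 2 was far above Pre-T 1 for both, and Saa2 led the unnamed cluster of Pre-T 2. Of 17 tumor markers, 10 were higher, 2 were lower and 2 rose, beside 1.65% of all genes. Golm1, a Golgi protein of diseased hepatocytes, stood at 0.371, 0.452, 4.6 and 4.42 CPM (log2 fold change 3.20 ± 0.47 (SE), edgeR adjusted p = 0.0169), and Ly6d, a surface protein, at 0.185, 0.452, 45.5 and 29 CPM (log2 fold change 6.67 ± 0.56 (SE), edgeR adjusted p = 0.0038). Afp, the classical marker, stood at 1.37, 2.29, 10.8 and 3.21 CPM over all nuclei (edgeR adjusted p = 0.232). With the 4 libraries alone, 6 acute phase genes passed as higher and 1 as lower, and 5 tumor markers passed as higher, in the fit that called 3% and 3.22% of all genes. The call of Hamp was lost without any one of the 4 mice, with at least 100 counts and with replicate numbers as a block. That of Cdkn1a was lost without Pre-T 1 or without Pre-T 2, and that of Golm1 without Ctrl 1, without Pre-T 1 or without Pre-T 2 and with DESeq2.

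The Ctrl mice were far apart for some genes of the circadian clock. In hepatocytes Npas2, a partner of Clock, stood at 226, 3.98, 269.8 and 312 CPM, and Dbp, an output gene of the clock, at 0.495, 69.8, 1.73 and 1.23 CPM. Ctrl 2 was far below the other mice for Npas2 and far above them for Dbp. The hour at which each liver was taken is not given in the sources used here. Of 18 clock genes, 5 were higher and 4 lower, beside 42.5% and 15.2% of all genes. Nr1d1, a nuclear receptor that represses Arntl, fell, with 10.4, 80.0, 1.5 and 0.983 CPM (log2 fold change -5.33 ± 0.96 (SE), edgeR adjusted p = 0.0322). Of 15 immediate early genes, 2 were higher and 5 lower, and 2 rose and 1 fell, beside 1.65% and 0.988% of all genes. Egr1, a transcription factor induced within minutes, fell, with 116, 189, 12.4 and 13.9 CPM (log2 fold change -3.74 ± 0.32 (SE), edgeR adjusted p = 0.0038). Klf6 rose, with 12.4, 11.6, 74 and 62.3 CPM (log2 fold change 2.28 ± 0.37 (SE), edgeR adjusted p = 0.0217), and Ier3, with 0.495, 0.271, 7.02 and 6.27 CPM (log2 fold change 3.78 ± 0.47 (SE), edgeR adjusted p = 0.00961). The call of Egr1 passed in all 13 alternatives, that of Ier3 was lost without Pre-T 1, that of Nr1d1 without Pre-T 1 or without Pre-T 2 and that of Klf6 without Ctrl 2, without Pre-T 1 or without Pre-T 2.

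Inflammatory ligands were mostly higher over all nuclei, at low levels. Tnf stood at 0.403, 0.286, 5.78 and 7.86 CPM and the chemokines Ccl3 and Ccl4, which attract monocytes and lymphocytes, at 0.241, 0.163, 2.83 and 5.81 CPM and 0.604, 1.14, 7.87 and 16.7 CPM. Ccl2 stood at 0.483, 1.39, 10.7 and 13.5 CPM, and Ccr2, its receptor on monocytes, at 5.88, 4.9, 43.1 and 42.6 CPM. Both Pre-T mice were above both Ctrl mice for each. The interferon-induced ligands Cxcl9 and Cxcl10, which attract T cells, stood at 0.443, 1.67, 8.36 and 25.4 CPM and 1.45, 1.14, 13 and 16.7 CPM, and Cxcl16, the ligand of Cxcr6, at 4.51, 5.06, 15.6 and 26.7 CPM. Il1b stood at 32.6, 7.14, 40.2 and 70.1 CPM, with Ctrl 1 close to Pre-T 1. Other ligands did not separate the diets. Il6 stood at 1.45, 0.572, 0.123 and 0.744 CPM, Il1a at 12, 6.08, 7.66 and 17.4 CPM, Il18 at 34.4, 24.3, 34.5 and 24.7 CPM and Ifng at 0, 0.245, 0.41 and 0.186 CPM, and the groups overlapped for each. Cxcl12, which holds leukocytes and progenitors in tissue, was the 1 gene of the list that was lower in both Pre-T mice, with 172, 161, 86.1 and 122 CPM. Macrophage markers were higher in the same sums, 9 of 11 on both scales. Among all genes 45.3% were higher on the CPM scale and 29.1% after TMM scaling. The part of macrophages in these values was not tested.

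Macrophage genes were also higher in the nuclei classed as hepatocytes. Of the 350 genes that rose there, 167 had their highest level among the tested classes in hepatocytes and 92 in macrophages. Gpnmb rose from 2 to 102 UMIs, 82.5 times the CPM (interval 22.3 to 691). Cxcl10, a chemokine induced by interferon, stood at 0.804, 0.543, 17.9 and 13.8 CPM (log2 fold change 4.26 ± 0.41 (SE), edgeR adjusted p = 0.00417). Macrophages were a larger share of the nuclei of the Pre-T mice, 15.1% and 16.4% against 5.19% and 4.44%, and their part in these values was not tested.

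In macrophages, 18712 genes were tested and edgeR called 384 (2.05%), with 138 rising (0.737%) and 246 falling (1.31%). These calls rested on all mice: the test called 0 genes when Ctrl 1, Pre-T 1 or Pre-T 2 was left out and 3 when Ctrl 2 was, but 2045 and 2094 when Post-T 1 or Post-T 2 was. With at least 100 counts the test called 0 of 10138 genes. Of the 246 genes that fell in the main fit, 202 had their highest level in hepatocytes and 9 in macrophages, beside the hepatocyte RNA found in T cells. Of the 138 that rose, 105 had their highest level in macrophages. The description here is kept mainly to genes known from macrophages, and not all of these had their highest level there. Averaged over the Ctrl and Pre-T mice, Cd36 stood at 234.9 CPM in endothelial cells and 143.9 CPM in macrophages. Cd9 stood at 74.1 and 30.1 CPM in the same classes. Cd36 was also higher in both Pre-T mice in hepatocytes and in endothelial cells.

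Of 18 lipid-associated macrophage genes, 17 were higher in both Pre-T mice, beside 38.8% of all genes, 1, Colec12, was lower and 13 rose, with a median log2 fold change of 2.94 against 0.14 for all genes. Among receptors, Trem2, which senses lipids, stood at 3.9, 6.48, 69.7 and 42.6 CPM (ENSMUSG00000023992, chr17:48346401-48354147; log2 fold change 3.30 ± 0.45 (SE), edgeR adjusted p = 0.0163). Cd36, which takes up oxidized lipoproteins, stood at 43, 53.1, 244 and 235 CPM (log2 fold change 2.22 ± 0.28 (SE), edgeR adjusted p = 0.0116), and Gpnmb at 3.9, 3.89, 189 and 147 CPM (log2 fold change 5.29 ± 1.01 (SE), edgeR adjusted p = 0.0335). The integrins of the list rose too. Itgax, or CD11c, stood at 6.51, 5.18, 77.3 and 77.9 CPM (log2 fold change 3.62 ± 0.37 (SE), edgeR adjusted p = 0.0101), and Itgad, or CD11d, had 3 UMIs in the Ctrl mice and 1012 in the Pre-T mice, 83.9 times the CPM (interval 28.6 to 407). Among enzymes, Lpl, lipoprotein lipase, stood at 66.4, 37.6, 547 and 326 CPM (log2 fold change 2.94 ± 0.48 (SE), edgeR adjusted p = 0.0236), and Ctsd, a lysosomal protease, at 95, 64.8, 276 and 328 CPM (log2 fold change 1.81 ± 0.32 (SE), edgeR adjusted p = 0.0285). Atp6v0d2, a subunit of the lysosomal proton pump, had 1 UMI against 896, 223 times the CPM (interval 39.9 to 8810). Spp1, the secreted protein osteopontin, stood at 3.9, 7.77, 33.5 and 89.1 CPM (log2 fold change 3.31 ± 0.64 (SE), edgeR adjusted p = 0.0365). Cd63, Cd9, Fabp5 and Lgals3 were the others that rose, and the call of Fabp5 was lost with DESeq2 and with another scaling (RLE). Mmp12 was at 2.6, 35, 385 and 323 CPM and did not pass (edgeR adjusted p = 0.0692).

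Kupffer cell genes went mostly lower in the same nuclei. Of 14 genes, 8 were lower in both Pre-T mice, beside 18.7% of all genes, 4 were higher, beside 38.8%, and 1 fell, with a median log2 fold change of -1.0. Cd163, the scavenger receptor for hemoglobin with haptoglobin, was the one that fell, with 154, 325, 12.8 and 7.6 CPM (chr6:124304656-124330527; log2 fold change -4.66 ± 0.58 (SE), edgeR adjusted p = 0.011). Clec4f, a lectin of mouse Kupffer cells, stood at 1199, 1245, 382 and 396 CPM (edgeR adjusted p = 0.0862), and Timd4, a receptor for dying cells, at 315, 406, 208 and 198 CPM (edgeR adjusted p = 0.614). The groups did not overlap for these 3 genes. C6, a complement component, stood at 876, 1056, 369 and 381 CPM. Over all nuclei the same list had 8 of 14 higher and 3 lower, in sums that held 375, 345, 816 and 1290 macrophages. Among inflammatory genes, Ccl6, a chemokine, rose, with 41.6, 33.7, 153 and 154 CPM (log2 fold change 1.93 ± 0.32 (SE), edgeR adjusted p = 0.0251), and no other gene of that list passed. Il1b stood at 657, 148, 195 and 251 CPM, where Ctrl 1 was the highest mouse. Pparg, the lipid-sensing nuclear receptor, stood at 65.1, 95.9, 601 and 652 CPM (log2 fold change 2.87 ± 0.45 (SE), edgeR adjusted p = 0.0207), and Ccr2, the receptor that draws monocytes into tissue, at 27.3, 15.6, 155 and 91.5 CPM (log2 fold change 2.40 ± 0.49 (SE), edgeR adjusted p = 0.0421).

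**Figure D4:**
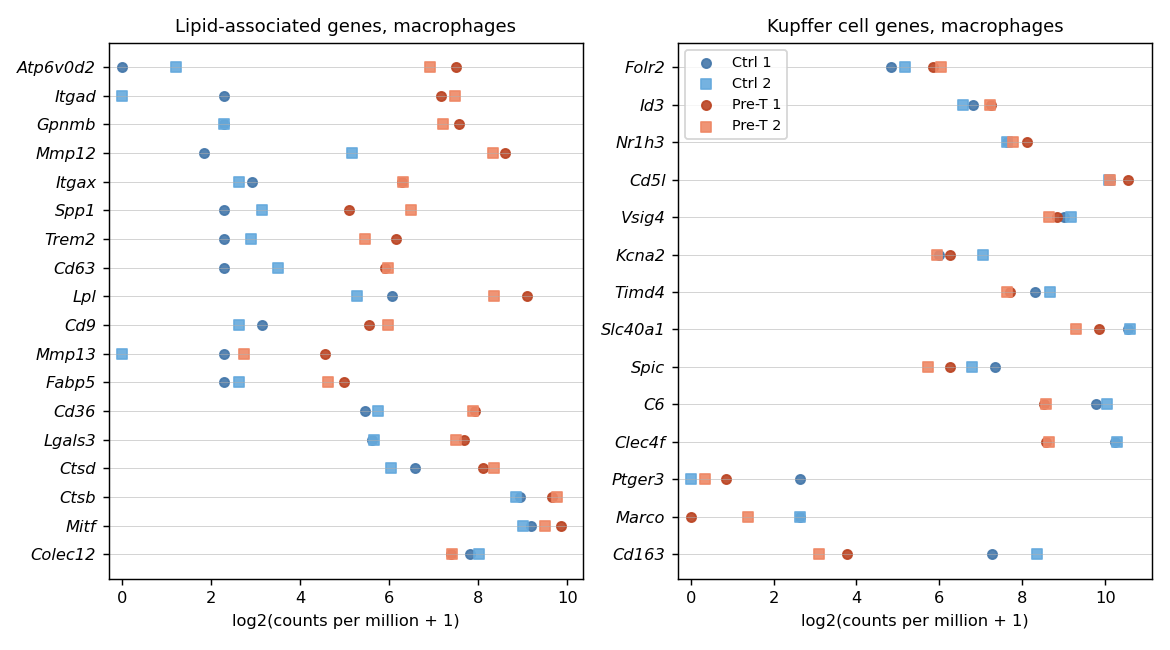
Level of 18 lipid-associated macrophage genes and 14 Kupffer cell genes in macrophages of each mouse as log2(CPM + 1), with 1 point per mouse and colors for Ctrl and Pre-T. Trem2 is at 3.9 and 6.48 CPM in the Ctrl mice and at 69.7 and 42.6 CPM in the Pre-T mice, and Cd163 is at 154 and 325 against 12.8 and 7.6 CPM.

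Other genes that marked macrophages of the Pre-T mice were less familiar. 4931431B13Rik, a processed transcript, and Gm32554 had 0 UMIs in the Ctrl mice, so they were at least 35.6-fold and at least 10.5-fold higher against a floor of 3 UMIs over the group. Slit3, a guidance ligand, stood at 2.6, 2.59, 181 and 396 CPM (log2 fold change 6.68 ± 1.37 (SE), edgeR adjusted p = 0.0425). Itgad and 4931431B13Rik led 1 of the 3 macrophage clusters. That cluster held 0.533% and 0.58% of the macrophages in the Ctrl mice and 23.3% and 30.7% in the Pre-T mice. The cluster led by Vsig4 and Cd5l held 70.4% and 72.5% against 32.5% and 36.8%.

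In fibroblasts, the class that holds the stellate cells of the liver, 18974 genes were tested and edgeR called 747 (3.94%), with 329 rising (1.73%) and 418 falling (2.2%). The Post-T libraries in the fit gave 218 and 57 fibroblasts, against 869, 1099, 452 and 553 in the 4 compared mice. Leaving out Ctrl 1 lowered the calls to 248 and leaving out Ctrl 2 to 480. Of the 418 that fell, 374 had their highest level in hepatocytes and 27 in fibroblasts, and of the 329 that rose, 177 had it in macrophages and 95 in fibroblasts. Genes of fibroblasts themselves were therefore a minority of the calls. Rbfox1, a splicing regulator, stood at 5.96, 11.2, 404 and 359.8 CPM (chr16:5885355-7411526; log2 fold change 5.24 ± 0.46 (SE), edgeR adjusted p = 0.000548). Gpr176, an orphan receptor, stood at 0.851, 0.637, 36 and 26.2 CPM (log2 fold change 5.06 ± 0.59 (SE), edgeR adjusted p = 0.00182). Egfem1 fell, with 1117, 1037, 21.7 and 66.9 CPM (log2 fold change -4.79 ± 0.51 (SE), edgeR adjusted p = 0.00124). Pcdh15, a protocadherin, fell, with 648, 688, 48.4 and 78.2 CPM (log2 fold change -3.60 ± 0.43 (SE), edgeR adjusted p = 0.00192), and Tafa1, a secreted peptide of the nervous system, with 313, 478, 48.4 and 49.8 CPM (log2 fold change -3.21 ± 0.46 (SE), edgeR adjusted p = 0.00376). Each of these 5 genes had its groups apart by more than the spread within a group.

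In fibroblasts, 13 of 22 genes of extracellular matrix and stellate activation were higher in both Pre-T mice, beside 36% of all genes. Of the others 1 was lower and 8 overlapped between the groups, and 2 of the 22 rose in the test. Col1a1, the main chain of fibrous collagen, stood at 23.8, 5.1, 91.1 and 72.8 CPM (log2 fold change 2.30 ± 0.51 (SE), edgeR adjusted p = 0.0293). Its call was lost with the 4 Ctrl and Pre-T libraries alone, without Post-T 1, without Post-T 2, without Ctrl 2 and with a filter of at least 100 counts. Timp1, an inhibitor of matrix proteases, had 1 UMI in the Ctrl mice and 32 in the Pre-T mice, 50.5 times the CPM (interval 8.43 to 2054). Its call was lost with DESeq2 and without Ctrl 1, Ctrl 2 or Pre-T 2. Acta2, smooth muscle actin, which marks activated stellate cells, stood at 43, 6.69, 18.6 and 20.9 CPM, with Ctrl 1 as the highest mouse. Of 14 quiescent stellate genes, 7 were lower, beside 17% of all genes, and 3 higher. Ntm, neurotrimin, fell, with 2471, 3952, 1231 and 1609 CPM (log2 fold change -1.38 ± 0.33 (SE), edgeR adjusted p = 0.0394), while Lrat, which stores vitamin A as retinyl ester, rose, with 100, 133, 479.8 and 386 CPM (log2 fold change 1.68 ± 0.25 (SE), edgeR adjusted p = 0.00468). The call of Lrat was lost without Ctrl 1, and that of Ntm without any one of the 4 mice or with at least 100 counts. Ntm led the cluster that held 82.4% and 89.6% of the fibroblasts in the Ctrl mice, and another cluster held 98.2% and 99.3% of them in the Pre-T mice. Ccl2, the ligand of Ccr2, stood at 2.13, 8.6, 69.4 and 66.9 CPM (log2 fold change 3.38 ± 0.49 (SE), edgeR adjusted p = 0.00381).

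In endothelial cells, 18893 genes were tested and edgeR called 37 (0.196%), with 13 rising (0.0688%) and 24 falling (0.127%). Leaving out any one Ctrl or Pre-T mouse left 0 calls, and leaving out Post-T 1 or Post-T 2 gave 154 or 185. With at least 100 counts the test called 0 of 10207 genes. Of the 24 genes that fell in the main fit, 20 had their highest level in hepatocytes. Genes with their highest level in endothelium included Cyp26b1, which degrades retinoic acid, at 10.9, 16.9, 125 and 157 CPM (log2 fold change 3.16 ± 0.41 (SE), edgeR adjusted p = 0.0414), Cxcl9, an interferon-induced chemokine, at 1.67, 6.08, 45.9 and 60.3 CPM (log2 fold change 3.60 ± 0.50 (SE), edgeR adjusted p = 0.0484), and Chrm3, a muscarinic receptor, at 96.9, 71.6, 13.5 and 6.59 CPM (log2 fold change -3.34 ± 0.36 (SE), edgeR adjusted p = 0.0414). Cyp26b1 and Cxcl9 rose and Chrm3 fell. Of 15 sinusoidal genes 3 were higher, 1 was lower, beside 15.8% of all genes, and 0 passed; Stab2, the hyaluronan scavenger receptor of the sinusoid, stood at 2434, 2632, 2248 and 2130 CPM. Of 15 capillary genes 13 were higher, beside 33.1% of all genes, 0 were lower and 0 passed. Fabp4 stood at 47.2, 65.5, 189 and 144 CPM (edgeR adjusted p = 0.0904), Cd36 at 89, 143, 350.1 and 357 CPM (edgeR adjusted p = 0.134) and Plvap, which forms the diaphragm of fenestrae, at 21.7, 33, 72 and 63.9 CPM. Macrophage genes were among the calls as well, with Lyz2, lysozyme, at 9.61, 4.78, 90.0 and 240.3 CPM (log2 fold change 4.35 ± 0.60 (SE), edgeR adjusted p = 0.0484).

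The make-up of the nuclei differed between the diets. Macrophages were 5.19% and 4.44% of the kept nuclei in the Ctrl mice and 15.1% and 16.4% in the Pre-T mice, or 4.81% ± 0.53 against 15.8% ± 0.95 (SD, n = 2, exact permutation p = 0.3333). With 2 mice against 2, 0.3333 is the smallest p that this two-sided test can give, so no share can pass a threshold of 0.05. Monocytes were 1.12% ± 0.09 against 6.59% ± 2.77 and T cells 3.88% ± 0.63 against 6.47% ± 0.69. B cells were 4.18% ± 0.87 against 1.69% ± 0.73. Of 8 B cell markers over all nuclei, 4 were lower in both Pre-T mice, beside 15.8% of all genes, 1 was higher, beside 45.3%, and 3 overlapped. Ebf1, a transcription factor of B cells, stood at 140.5, 149.5, 69.9 and 54.1 CPM. Fibroblasts were 13.1% ± 1.5 against 7.7% ± 0.93 and endothelial cells 12.9% ± 0.36 against 9.11% ± 1.87. Of named nuclei alone, endothelial cells were 16.1% ± 3.8 against 12.8% ± 4.31, and the groups overlapped. Mesothelial cells, which cover the liver surface, were 190 and 171 nuclei against 26 and 2. All 6 of their markers were lower in both Pre-T mice on both scales, with Msln, mesothelin, at 6.04, 5.43, 1.23 and 0.791 CPM. Among all genes 15.8% were lower on the CPM scale and 31.4% after TMM scaling. Over all nuclei, all 6 neutrophil markers were higher, with S100a9 at 1.37, 0.327, 13.3 and 14 CPM. All 7 proliferation genes were higher as well, with Top2a at 4.55, 2.9, 24.1 and 23.6 CPM, beside 45.3% of all genes. No cluster was named neutrophils (0 nuclei in each mouse), so their share was not measured. Hepatocytes were 50.1%, 23.6%, 27.6% and 17.3%, and their groups overlapped. Unnamed clusters held 5.89%, 30%, 19.8% and 34% of the nuclei, so these shares move with what could be named.

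**Figure D5:**
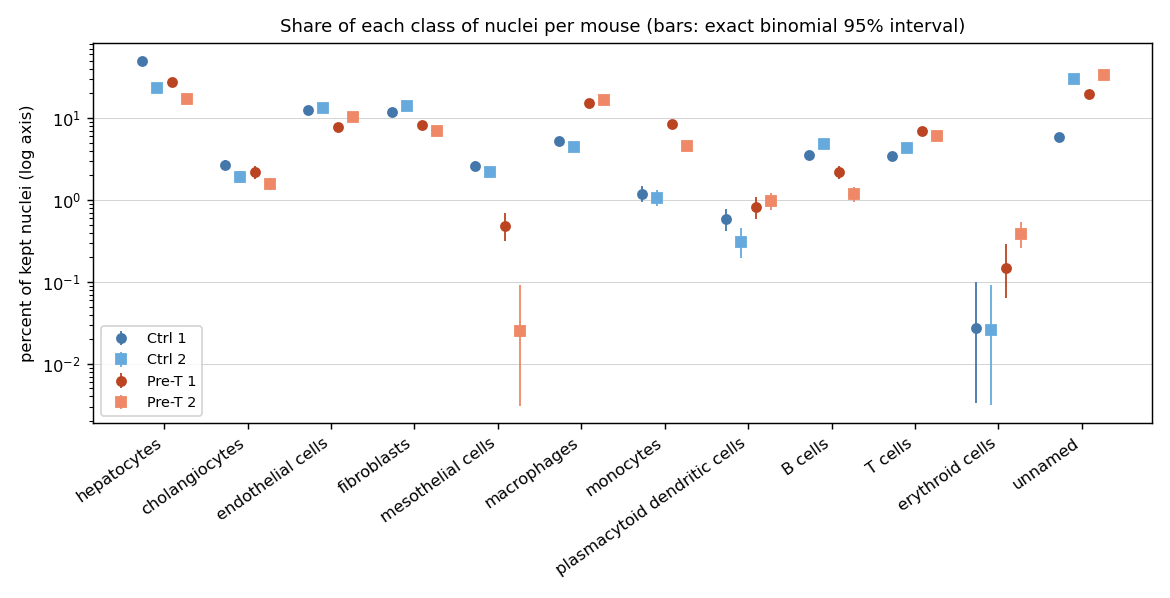
Share of the kept nuclei in each cell class and mouse, in percent on a log axis, with bars for the exact binomial 95% interval, which covers counting error only. Macrophages are at 5.19% and 4.44% in the Ctrl mice and at 15.1% and 16.4% in the Pre-T mice, while the hepatocyte shares of the groups overlap.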

How the data were processed

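Single-nucleus RNA was sequenced from 6 livers, 1 library per mouse, and the 2 Ctrl and 2 Pre-T libraries were compared. The authors deposited filtered UMI counts per gene and barcode, and the submitters' processing notes name Cell Ranger 6.1.1 and mm10. Whether intronic reads were counted is not given in the sources used here. No doublet caller was run. The study's own limits on genes per nucleus, meant to remove dead and multiple cells, were applied: barcodes with more than 200 and fewer than 5000 genes and under 5% mitochondrial UMIs were kept.

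Nuclei were clustered with scanpy 1.11.5 (2000 variable genes, 30 components, 15 neighbors, Leiden resolution 1). A cluster was named where at least 3 markers of a cell type were 3-fold higher in CPM than elsewhere. Hepatocyte RNA was in all nuclei, so a remaining cluster was named hepatocytes where at least 3 of 8 markers had 3-fold more UMIs per nucleus than the median of the named clusters, which depends on depth. It stayed unnamed otherwise, or where markers of another class, hepatocyte products, proliferation genes or low depth went against the name. Counts were summed per mouse, over all nuclei and in 4 classes. They were tested with edgeR 4.0.16 (quasi-likelihood, TMM, 6 libraries in 1 fit, 3 residual degrees of freedom, at least 10 counts, or 3 in a class). Benjamini-Hochberg adjusted p values under 0.05 were called, over all genes tested. The test was tried on simulated counts, where in the pooled sums and in all 4 classes it called more unchanged genes than its threshold allows, by more in the classes. Each library is 1 mouse. Sequencing batches are not given in the sources used here.

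The members and gene lists (21 pathway lists, 17 marker lists) were chosen with earlier results of these data known. Named genes were, by rule, those with the largest change among called genes with a mean of at least 10 CPM and groups that did not overlap, and from each list the member with the highest level and the 3 largest changes. Other list members that passed, or that complete a pathway step, and genes with their highest level in the tested class were named after their values were seen. Coordinates and IDs come from GENCODE vM21 (GRCm38), where 502 of 502 genes matched. Alternatives tried were DESeq2 1.42.0, other scaling, other filters on counts and barcodes, nuclei thinned to 500 UMIs, the 4 libraries alone, replicate numbers as a block, each library left out, and another clustering resolution. Some genes are not reported here.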

Additional observations from a re-analysis of the deposited data

How the results depend on the processing

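The cholesterol, periportal and lipid-associated macrophage lists kept their direction on both scales and without the unnamed cluster of Pre-T 2 or that of high depth in Pre-T 1 (that of Ctrl 2 was not left out), while the counts of called genes moved widely with 2 mice a group. For the pooled nuclei the count of 0 became 2119 with DESeq2, 124 with no filter on counts, 1100 with the 4 libraries alone, 11 with thinned nuclei and 20 without the unnamed cluster of high depth, and 0 to 1392 with a library left out. Settings that left out an unnamed cluster were chosen after seeing the data. For hepatocytes the count of 560 became 353 with DESeq2, 1705 with no filter, 1301 with the 4 libraries, and 74 to 1338 with a library left out. For endothelial cells the count of 37 became 282 with DESeq2, 63 with RLE scaling, 570 with no filter, 0 with at least 100 counts, 295 with the 4 libraries, and 0 to 185 with a library left out. For fibroblasts the count of 747 became 488 with DESeq2, 1877 with no filter, 361 with at least 100 counts, and 248 to 1076 with a library left out. For macrophages the count of 384 became 638 with DESeq2, 1817 with no filter, 0 with at least 100 counts, 2012 with the 4 libraries, and 0 to 2094 with a library left out. The count of genes lower in both Pre-T mice was 6840 after TMM scaling and 4725 to 5803 with a library left out, that of genes higher was 6349 after TMM scaling. Same-numbered Ctrl and Pre-T libraries deviated in opposite directions over 10029 genes (correlation -0.213). The correlation was 0.0232 for Ctrl with Post-T and 0.0807 for Pre-T with Post-T. Whether libraries of the same number were handled together was not tested. With a replicate block the test called 0 genes in pooled nuclei, 438 in hepatocytes, 138 in endothelial cells, 953 in fibroblasts and 811 in macrophages. With the numbers of the Pre-T mice crossed in the block, a pairing chosen after seeing the data, it called 1325, 207, 1761 and 1344 in the 4 classes. Of 63 named calls in hepatocytes 13 passed in all 13 alternatives, and of 95 in fibroblasts 32 passed in each of the 12 or 13 that gave a value, while of 56 in macrophages and 15 in endothelial cells 0 did. In hepatocytes Lcn2, Ly6d, Ephb2, Mogat1, Asns, Etnppl, Cxcl10 and Egr1 were among the 13. Shares moved with the clustering and the denominator. At resolution 0.5 the difference between Pre-T and Ctrl was -54.6 percentage points for hepatocytes, where the mean of the Ctrl mice went from 36.9% to 54.9% and that of the Pre-T mice from 22.5% to 0.32%, 12.3 for macrophages and 0 for erythroid cells. Among named nuclei alone it was 15.9 for macrophages, 7.45 for monocytes, 3.95 for T cells, 0.712 for plasmacytoid dendritic cells and -2.65 for mesothelial cells. The sign of 4 pooled genes with no called change turned. Apoe was -0.30 on the log2 scale with a replicate block, -0.048 with all deposited barcodes, -0.11 without the unnamed cluster of Pre-T 2 and -0.86 to 0.84 with a library left out. With a library left out Axin2 was -0.093 to 3.10, Colec12 -0.44 to 0.22 and Dbp -5.30 to 0.28. The cause was not tested.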
